A study of Mus musculus with 24 samples.

Results

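Immune checkpoints are receptor and ligand pairs that restrain T cells and phagocytes. The ligands PD-L1 and PD-L2 on presenting or tumour cells bind PD-1 on T cells, CTLA-4 competes with CD28 for the CD80 and CD86 ligands, and LAG-3, TIM-3 and TIGIT damp T and NK cell responses. CD47 is carried by most cells and signals through SIRP alpha on myeloid cells to hold back phagocytosis, and TGF-beta restrains many immune cells. In the brain, microglia carry several of these genes, and immunosuppression by myeloid cells is a known feature of gliomas.

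The 10 genes examined were Cd274 (PD-L1), Pdcd1lg2 (PD-L2), Pdcd1 (PD-1), Ctla4, Lag3, Tigit, Havcr2 (TIM-3), Cd47, Sirpa (SIRP alpha) and Tgfb1, chosen by symbol from the 55938 genes of the deposited table. They stood under 11 identifiers, since Ctla4 was listed under 2. The data were RNA-seq counts from 12 mouse gliomas that arose after a PDGFB vector was delivered in utero to the embryonic telencephalic ventricles. PDGFB is a growth factor that drives glioma formation. Each tumour was microdissected and dissociated, and its cells were sorted by flow cytometry into fluorescent glioma cells and non-fluorescent surrounding cells, which gave 24 libraries. All animals carried the PDGFB gliomas, so that no tumour-free brain stood in the comparison and the surrounding cells are the cells of tumour tissue that did not fluoresce. Each population had 3 stages of 4 tumours. The asymptomatic stage, from animals without symptoms 33 to 34 days after transduction, held tumours 3228A, 3228B and 3228D as well as 3229B. Animals with symptoms at 35 to 50 days formed the early stage (codes 3108C and 3108D, then 3109D with 3145A). Animals with symptoms at 100 to 175 days formed the late stage, made of 3054A, 3054B, 3054C plus 3057E. The glioma cells of 3057E were labelled red and all others green. Each tumour code is taken as 1 animal, and the p-values below describe the spread between 4 tumours a group.

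Levels are given as CPM, a gene's count relative to the total of its library, after scaling with TMM, the edgeR method that makes libraries comparable. Differences were tested with edgeR's quasi-likelihood test, and a gene was called at a Benjamini-Hochberg adjusted p under 0.05 over all genes tested. Library totals ran from 9.08e+06 to 1.55e+07 counts. The glioma libraries were high in 10 markers of oligodendrocyte precursors, at 7855 to 12850 CPM in sum, against 549 to 9278 CPM in the surrounding libraries. The sum of 10 microglia markers ran from 111 to 566 CPM in glioma cells other than 3057E, against 3577 to 11460 CPM in surrounding cells other than 3057E. Tumour 3057E stood apart, with 1618 CPM of microglia markers in its glioma library and 1550 CPM in its surrounding library. T cell marker RNA was low: the summed CPM of 12 markers reached at most 11.48 in glioma cells and at most 107.8 in surrounding cells, and Cd3e and Cd3g were at 0 in all early and all late glioma libraries. In 3108D, Xist stood at 1588 CPM in glioma cells and 2.08 CPM in surrounding cells, and in 3109D at 1.89 CPM in glioma cells and 1077 CPM in surrounding cells. These codes therefore cannot each name 1 animal in both populations. Both tumours are early symptomatic, and which animal each library came from is not shown by these values. In these bulk samples, fewer cells of a type and less RNA per cell cannot be told apart.

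Of the 10 genes, 7 passed the filter on low counts in the 24 libraries, and Pdcd1lg2, Ctla4 and Tigit did not. In glioma cells, the mean level per kilobase of exon was highest for Cd47 at 27.1 ± 5.69 CPM per kb (SD, n = 12) and next for Sirpa at 20.1 ± 9.95, while Lag3 had 3.35 ± 7.97, Havcr2 1.35 ± 1.57, Tgfb1 0.951 ± 1.496 and Cd274 0.439 ± 0.476 CPM per kb. The remaining 4 genes had mean levels of 0.00269 to 0.336 CPM per kb in glioma cells. In surrounding cells the order differed. Sirpa stood highest at 116 ± 36.8 CPM per kb (SD, n = 12), followed by Lag3 at 82.8 ± 42.8, Havcr2 at 45.4 ± 26.4, Cd47 at 28.3 ± 8.60, Tgfb1 at 24.9 ± 15.5 and Cd274 at 7.66 ± 8.88 CPM per kb. Pdcd1 had 2.48 ± 1.66 CPM per kb, and Tigit, Pdcd1lg2 and Ctla4 had means of 0.608, 0.292 and 0.103 CPM per kb in surrounding cells. In surrounding cells the means of Sirpa, Lag3, Havcr2 and Cd47 each lay within 1 SD of the next, by a pair's larger SD. So did those of Cd274 and Pdcd1. By the same measure this held in glioma cells for Cd47 and Sirpa, and for neighbours from Lag3 through Havcr2 and Tgfb1 to Cd274.

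**Figure D1:**
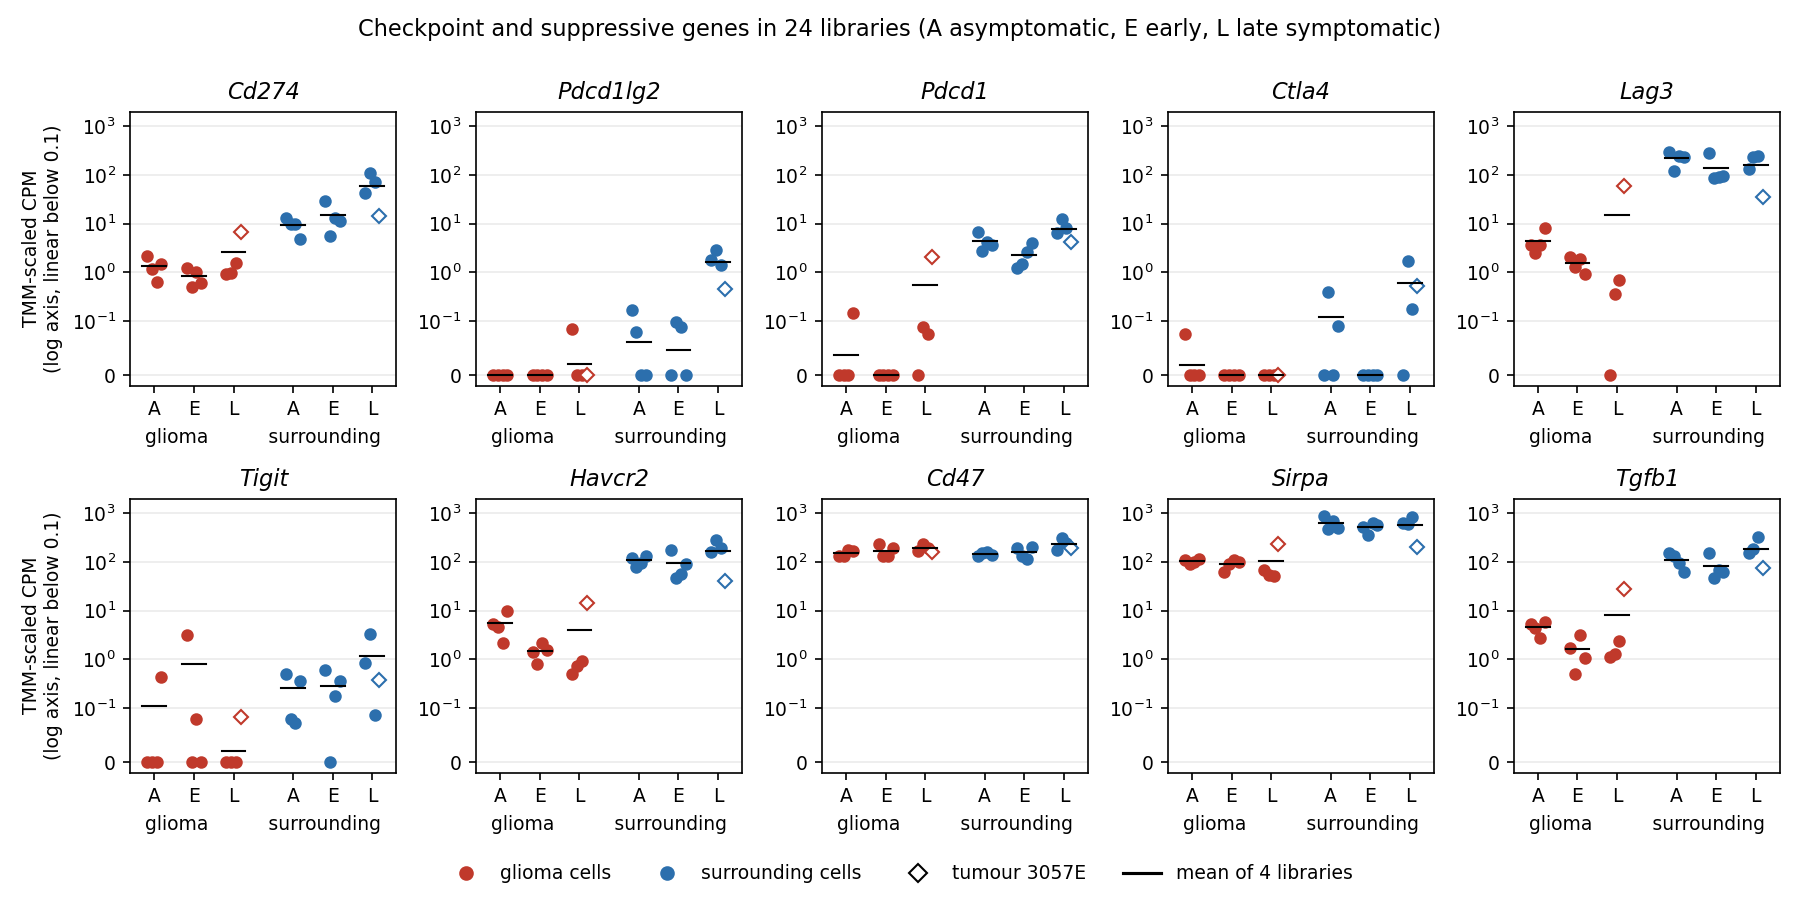
TMM-scaled CPM of the 10 genes in each library (log axis, linear below 0.1), by population and stage, with 4 tumours per group. Bars are group means, and open diamonds are tumour 3057E; Cd47 stood between 115.1 and 303.6 CPM in all 24 libraries, while the other genes were mostly higher in surrounding cells.

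The promoter windows of Cd274, Havcr2 and Cd47 are shown because these genes stand for a ligand whose late surrounding libraries all lay above the asymptomatic ones, a receptor with little RNA in glioma cells, and the member whose levels overlapped between populations. The 250 bases before the RefSeq transcript start (GRCm38.p6) are printed 5′ to 3′ on the plus strand, with matches to the motifs searched in capitals. The windows are chr19:29367188-29367437 (Cd274), chr11:46454681-46454930 (Havcr2) and chr16:49855404-49855653 (Cd47, the first of 2 windows in the table).
Cd274: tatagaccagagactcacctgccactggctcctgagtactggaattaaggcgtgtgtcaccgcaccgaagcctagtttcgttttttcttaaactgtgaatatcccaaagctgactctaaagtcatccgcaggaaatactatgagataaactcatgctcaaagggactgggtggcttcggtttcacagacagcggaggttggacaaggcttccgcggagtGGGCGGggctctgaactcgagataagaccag
Havcr2: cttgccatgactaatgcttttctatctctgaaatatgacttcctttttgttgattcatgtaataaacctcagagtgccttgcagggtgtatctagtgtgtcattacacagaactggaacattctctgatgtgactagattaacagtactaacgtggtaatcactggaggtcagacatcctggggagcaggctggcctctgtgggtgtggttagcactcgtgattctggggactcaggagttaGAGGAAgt
Cd47: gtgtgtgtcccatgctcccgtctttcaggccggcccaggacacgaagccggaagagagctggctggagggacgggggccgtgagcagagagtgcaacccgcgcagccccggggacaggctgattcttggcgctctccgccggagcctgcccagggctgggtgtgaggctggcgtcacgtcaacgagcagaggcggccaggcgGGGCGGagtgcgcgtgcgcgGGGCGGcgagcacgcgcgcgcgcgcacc
The motifs, sought on both strands, were an interferon-stimulated element (GAAA, then NN, then GAAA), the gamma-interferon site TTCNNNGAA, the core bound by the myeloid factor PU.1, GAGGAA, and the GC box GGGCGG. The first pair both hold GAA and may overlap. Of 27025 promoter windows of the same length, 3.04% held the first, 7.18% the second, 23.1% the third and 32.9% the fourth. RefSeq windows were matched for 8 of the 10 genes. None of the 8 held the interferon motifs. The core GAGGAA lay 3 to 8 bases before the start of Havcr2, and was also found in the windows of Pdcd1 and Pdcd1lg2. A GC box lay 26 to 31 bases before the start of Cd274 and 72 to 77 bases before that of Pdcd1, 2 lay in the window of Cd47 and 5 in that of Tgfb1. GC content was 50.4% for Cd274, 44.8% for Havcr2, 73.2% for Cd47 and 75.2% for Tgfb1, against a median of 52.0% over all windows. These are matches of letters and say nothing about binding.

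Glioma and surrounding cells were compared as the mean over the 3 stages and within each stage. Of the 7 genes tested, 6 were lower in glioma cells, beside 46.3% of all genes called in either direction and 24.2% called lower. Cd274, Pdcd1, Lag3, Havcr2, Sirpa and Tgfb1 fell, and Cd47 did not pass the test. Pdcd1 entered the test only through its surrounding libraries and had to be lower, so that its call is no support here or within the stages. The same 6 were lower within each stage taken alone, where 13.8% of all genes were called in asymptomatic, 13.5% in early and 35.3% in late tumours. The median log2 fold change of the 7 was -4.91, beside 0.062 over all genes tested. The fall of microglia markers in the same libraries stood at a median log2 fold change of -4.83, with 10 of 10 markers lower, and 12 of 12 T cell markers were lower as well, with a median of -4.15. The part of cell composition in these differences was not tested.

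Cd274, the PD-L1 ligand (chr19:29367455-29388095, plus strand), was low in glioma cells, at 0.496 to 6.86 CPM with a median of 1.10 CPM, against 4.78 to 109.3 CPM with a median of 12.99 CPM in surrounding cells. The lowest surrounding library lay below the glioma library of 3057E, and within each stage the populations did not overlap. The log2 fold change was -3.79 ± 0.40 (SE, n = 12 each, edgeR adjusted p = 1.1e-07). By stage it was -2.74 ± 0.67 in asymptomatic tumours, -4.11 ± 0.72 in early and -4.52 ± 0.70 in late tumours. Without 3057E the late value was -6.09 ± 0.61. Its expected counts lay more than 0.001 from a whole number in 13 of 24 libraries, and the antisense gene AC119228.1 overlaps it, so a share of its reads was assigned by estimate.

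Pdcd1lg2, the PD-L2 ligand (chr19:29410919-29471161, plus strand), had 1 count in all 12 glioma libraries together, against 67 counts in the 12 surrounding libraries. The ratio of the pooled levels was 0.0133, with an exact 95% interval for counting error alone of 0.000332 to 0.0768. With no filter on low counts, edgeR called it lower in glioma cells, with a log2 fold change of -3.64 (adjusted p = 0.0029), beside 24.3% of all genes called in that fit. The gene A930007I19Rik lies on the other strand over it.

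Among the receptors, Pdcd1 (chr1:94038305-94052553, minus strand), which encodes the PD-1 receptor of activated T cells, had 29 counts in glioma cells, against 625 in surrounding cells. Its level in glioma cells ran from 0 to 2.07 CPM with a median of 0 CPM, against 1.19 to 12.52 CPM with a median of 4.03 CPM in surrounding cells. The glioma library of 3057E held 2.07 CPM, and no other glioma library was above 0.146 CPM. In early tumours all 4 glioma libraries were at 0, and the level was at least 39.1-fold lower in glioma than in surrounding cells against a floor of 3 counts over the group. edgeR called Pdcd1 lower in glioma cells in the pooled comparison (adjusted p = 1e-06), with a fitted size that depends on these libraries at 0. The gene passed the count filter through its surrounding libraries and not in glioma cells alone, so that it had to come out lower.

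Lag3 (chr6:124904361-124911705, minus strand), an inhibitory receptor of T cells that binds MHC class II, was among the higher members in surrounding cells. It had 0 to 59.98 CPM with a median of 1.97 CPM in glioma cells, against 34.4 to 301.3 CPM with a median of 180.4 CPM in surrounding cells. The top glioma value is that of 3057E, where glioma cells stood above surrounding cells. In the other 11 tumours the populations did not overlap, since no glioma library passed 8.02 CPM. The log2 fold change was -5.18 ± 0.72 (SE, n = 12 each, edgeR adjusted p = 4.3e-06), and -7.14 ± 0.37 without 3057E. In late tumours alone it was -3.38 ± 1.13 (edgeR adjusted p = 0.024), -7.22 with the tumour as a replicate block and -9.18 ± 0.77 without 3057E. The late call was lost when 3054A, 3054B or 3054C was left out. The early call was lost without 3108D and 3109D, at -7.07 ± 2.15 (edgeR adjusted p = 0.058).

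Havcr2 (chr11:46454935-46481255, plus strand), the TIM-3 receptor of T cells and myeloid cells, had 0.507 to 14.1 CPM with a median of 1.85 CPM in glioma cells, against 39.7 to 284.7 CPM with a median of 106.7 CPM in surrounding cells. No glioma library reached the lowest surrounding library. Havcr2 had a log2 fold change of -5.21 ± 0.51 (SE, n = 12 each, edgeR adjusted p = 3.9e-08), and of -6.20 ± 0.32 without 3057E.

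Ctla4 and Tigit were at or near the counting limit. Ctla4 (chr1:60887000-60915832, plus strand) had 1 count in the glioma libraries, against 30 in the surrounding libraries, of which 24 came from late tumours. The second identifier of Ctla4 had 0 counts in glioma cells and 12 in surrounding cells; it is not in the annotation used for coordinates, and reads may have been shared between the 2. Tigit (chr16:43648867-43664146, minus strand), a receptor of T and NK cells, had 43 counts in glioma cells, against 65 in surrounding cells. Of the Tigit counts in glioma cells, 36 lay in early tumours, nearly all of them in 3108C at 3.11 CPM.

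Cd47 and Sirpa, the ligand and the receptor of the phagocytosis checkpoint, behaved differently from each other. Cd47 (chr16:49800533-49915010, plus strand) had 129 to 228.5 CPM with a median of 169.4 CPM in glioma cells, against 115.1 to 303.6 CPM with a median of 166.1 CPM in surrounding cells. The glioma range lay inside the surrounding range, and 7 tumours were lower and 5 higher in glioma cells. The log2 fold change was -0.042 ± 0.13 (SE, n = 12 each, edgeR adjusted p = 0.81), with a 95% interval from -0.29 to 0.21. A p that misses the threshold does not show that the levels are equal.

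Sirpa (chr2:129592835-129632228, plus strand) had 50.4 to 236.6 CPM with a median of 95.6 CPM in glioma cells, against 201.6 to 854.9 CPM with a median of 598.6 CPM in surrounding cells. The only overlap came from 3057E, where glioma cells stood at 236.6 CPM and surrounding cells at 201.6 CPM. The log2 fold change was -2.53 ± 0.25 (SE, n = 12 each, edgeR adjusted p = 5.7e-08), and it ran from -2.61 to -2.46 in the 3 stages. The late value of -2.46 was -3.66 ± 0.28 without 3057E. All 24 of its expected counts lay within 0.001 of a whole number. Sirpb1a, Sirpb1b and Sirpb1c belong to the same gene family.

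Tgfb1 (chr7:25687002-25705077, plus strand), the TGF-beta ligand best known for immune suppression, had 0.496 to 28.1 CPM with a median of 2.57 CPM in glioma cells, against 46.5 to 325.1 CPM with a median of 113.1 CPM in surrounding cells. The populations did not overlap. Its log2 fold change was -4.91 ± 0.50 (SE, n = 12 each, edgeR adjusted p = 6.4e-08), and -5.84 ± 0.32 without 3057E.

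**Figure D2:**
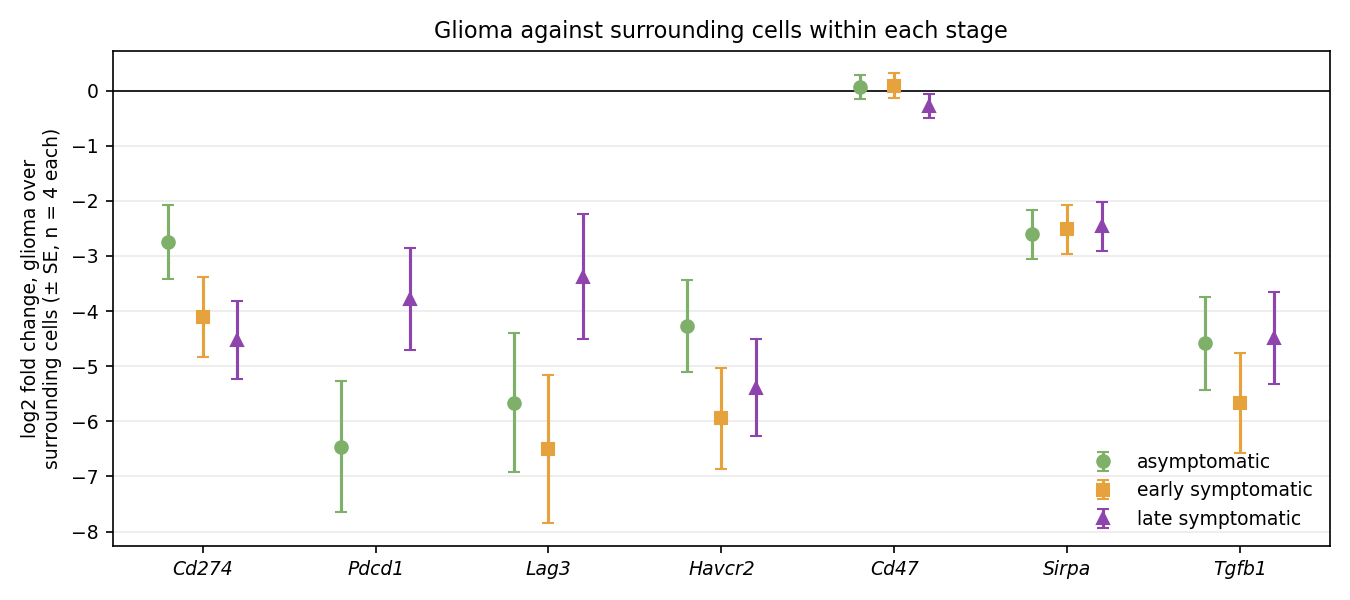
Log2 fold change of glioma over surrounding cells within each stage (edgeR estimates ± SE, 4 libraries a group) for the 7 genes tested; Pdcd1 in early tumours is not drawn, since all 4 glioma libraries were at 0. Cd47 sat near 0 in each stage, while Sirpa lay between -2.61 and -2.46 with all tumours, its late value being -3.66 without 3057E.

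The level of each gene in glioma cells, as a percent of its level in the surrounding cells of the same tumour, was set beside the percent for the 10 microglia markers. Microglia markers in glioma cells stood at a median of 2.62% of the surrounding level over 12 tumours, and at 1.08% to 5.85% in the 11 tumours other than 3057E. Sirpa stood at a median of 16.0%, and at 6.16% to 25.8% outside 3057E, above the microglia percent in 12 of 12 tumours. Cd274 had a median of 7.19%, with 0.899% to 30.5% outside 3057E, above the microglia percent in 10 of 12 tumours. Havcr2 and Tgfb1 had medians of 2.002% and 2.30% and were above in 4 of 12 tumours each. Lag3 had a median of 1.32% and was above in 1 of 12, and Cd47 had a median of 97.4% and was above in 11 of 12. Other marker lists had other medians: mature oligodendrocyte 17.3%, T cell 14.2%, monocyte and macrophage 10.6% and NK cell 8.50%. Endothelial and pericyte markers had 8.32% and 8.29%, and B cell, dendritic cell and neutrophil markers 3.16%, 2.41% and 1.66%. Which cells held the Sirpa and Cd274 RNA of the glioma libraries was not tested. The percents of 3108D and 3109D join populations that the Xist levels do not assign to 1 animal. In 3057E the percents were 117.3% for Sirpa, 48.9% for Cd274, 174.4% for Lag3, 35.4% for Havcr2 and 38.0% for Tgfb1, beside 104.4% for the microglia markers.

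**Figure D3:**
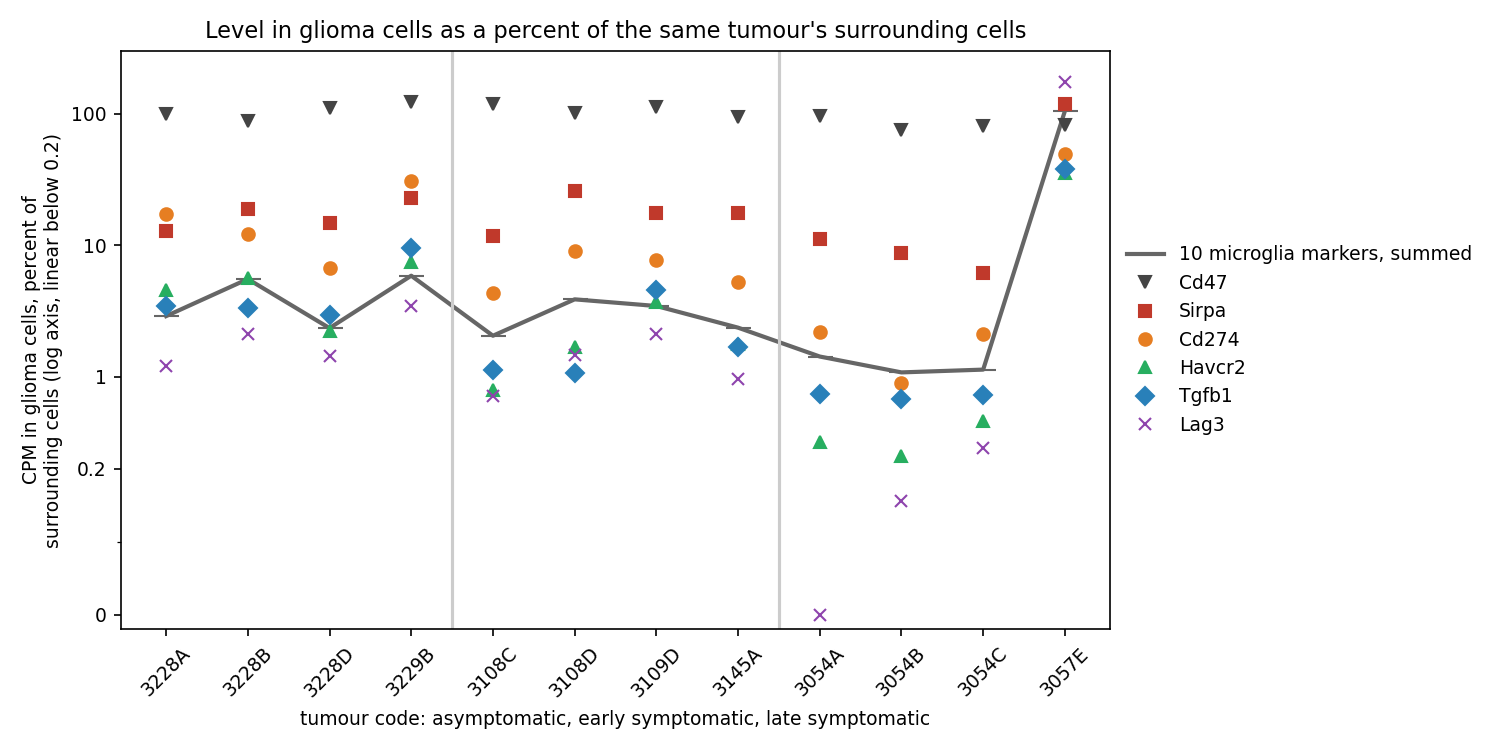
Level in glioma cells as a percent of the level in surrounding cells of the same tumour code (log axis, linear below 0.2), for 6 genes and the summed microglia markers. Sirpa lay above the microglia line in 12 of 12 tumours, and all genes but Cd47 lay far higher in 3057E than in the other late tumours.

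The stages were compared within each population, from the labels' division of the gliomas into tumours before symptoms, with early symptoms and with late symptoms. Stage, days and tumour code prefix cannot be told apart here. With all 12 tumours, edgeR called between stages none of the 6 genes tested in glioma cells and none of the 7 tested in surrounding cells, beside 0.273% of all genes called in glioma cells late against early, 0.158% late against asymptomatic and 0% early against asymptomatic. In surrounding cells the shares of all genes called were 1.48% late against early, 0% late against asymptomatic and 0% early against asymptomatic. Where the share was 0%, genes with an unadjusted p under 0.05 numbered 808 of 16494 in glioma cells early against asymptomatic, and in surrounding cells 2820 late and 647 early against asymptomatic of 17618. DESeq2 called 2 of the 10 genes and limma voom 4 of 7 in surrounding cells late against asymptomatic, beside 5.13% and 23.3% of all genes. Late against early they called 3 of 10 and 5 of 7, beside 5.62% and 29.5%. Pdcd1lg2 is among the genes DESeq2 called in both. In glioma cells late against asymptomatic, DESeq2 called 0 of the genes and limma voom 3 of the 6 it tested, beside 2.83% and 18.1% of all genes.

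Cd274 had the largest edgeR estimates among the 7 members tested in surrounding cells late against asymptomatic and late against early. It stood at 12.7, 9.75, 9.56 and 4.78 CPM in the 4 asymptomatic libraries, at 28.7, 5.54, 13.3 and 11.2 CPM in the 4 early libraries, and at 42.5, 109.3, 71.8 and 14.0 CPM in the 4 late libraries. All 4 late libraries were above all asymptomatic libraries, and the late library of 3057E, at 14.0 CPM, lay within the early range. The log2 fold change in surrounding cells was 2.68 ± 0.60 late against asymptomatic and 1.97 ± 0.59 late against early (SE, n = 4 each, edgeR adjusted p = 0.13 in both). Without 3057E it was 3.0 ± 0.50 (edgeR adjusted p = 0.0087) and 2.30 ± 0.49 (edgeR adjusted p = 0.011), both called. In glioma cells Cd274 had 2.18, 1.17, 0.636 and 1.46 CPM in asymptomatic, 1.24, 0.496, 1.02 and 0.591 CPM in early, and 0.929, 0.983, 1.51 and 6.86 CPM in late libraries. The groups overlapped there, with 3057E the only library above 2.18 CPM.

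Pdcd1lg2 was counted mostly in late surrounding cells. In surrounding cells it had 0.167, 0.0793, 0 and 0 CPM in asymptomatic, 0, 0.0988, 0.0878 and 0 CPM in early, and 1.79, 2.82, 1.38 and 0.445 CPM in late libraries. The late libraries did not overlap the 8 others, with 62 counts, against 5 counts in the asymptomatic and early libraries together. The pooled level was 26.6 times as high, with an exact 95% interval for counting error alone of 10.8 to 84.7. Without 3057E the gene passed the count filter through its late libraries, so that it had to differ, and its calls in that fit are not counted here.

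Pdcd1 had 6.69, 2.77, 4.17 and 3.6 CPM in asymptomatic, 1.19, 1.48, 2.55 and 3.91 CPM in early, and 6.46, 12.52, 8.01 and 4.15 CPM in late surrounding libraries. All 4 late libraries lay above all 4 early libraries and overlapped the asymptomatic ones. Late against early the log2 fold change was 1.72 ± 0.46 (SE, n = 4 each, edgeR adjusted p = 0.093), and 1.93 ± 0.46 without 3057E (edgeR adjusted p = 0.015).

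Tgfb1 in surrounding cells had 154.9, 131.4, 94.8 and 61.8 CPM in asymptomatic, 151.2, 46.5, 69.1 and 62.9 CPM in early, and 150, 186.4, 325.1 and 74.0 CPM in late libraries. The 3 stages overlapped. Late against early it had a log2 fold change of 1.12 ± 0.46 (SE, n = 4 each, edgeR adjusted p = 0.26), and 1.38 ± 0.42 without 3057E (edgeR adjusted p = 0.041). Without 3057E, which leaves 3 late tumours, Cd274, Pdcd1 and Tgfb1 were thus called late against early, all higher, among the 7 genes other than Pdcd1lg2, beside 18.9% of all genes. Late against asymptomatic, Cd274 was the 1 of these 7 called, beside 16.4%.

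Cd47 in surrounding cells had 132.4 to 156.2 CPM in asymptomatic, 115.1 to 201.3 CPM in early and 175.9 to 303.6 CPM in late libraries. The late libraries did not overlap the asymptomatic ones, with a log2 fold change of 0.65 ± 0.23 (SE, n = 4 each, edgeR adjusted p = 0.21). The other members of this population had wide late ranges, since 3057E was the lowest of the late libraries for Havcr2 at 39.7 CPM, for Lag3 at 34.4 CPM and for Sirpa at 201.6 CPM. Outside 3057E, late surrounding libraries had 160.4 to 284.7 CPM of Havcr2, 131.8 to 238.9 CPM of Lag3 and 613.1 to 817.3 CPM of Sirpa. Without 3057E these 3 genes were not called between stages in surrounding cells.

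The marker sums of other cells were set beside these values in the surrounding libraries. The summed CPM of 10 monocyte and macrophage markers was 249 to 2111 in asymptomatic, 369 to 1720 in early and 1018 to 5133 in late libraries. The T cell marker sum was 14.3 to 68.6 CPM in asymptomatic and 8.79 to 101.3 CPM in early libraries. Late libraries held 48.2 to 107.8 CPM of it, and for both lists the late range overlapped the others. Outside 3057E, late libraries held 2793 to 5133 CPM of the monocyte and macrophage markers, above all asymptomatic and early libraries. The late T cell range was the same without 3057E. The sum of 8 NK cell markers was 5.10 to 13.2 CPM in asymptomatic, 2.20 to 4.09 CPM in early and 10.7 to 39.0 CPM in late libraries, and that of 5 neutrophil markers was 116.4 to 178.3, 66.0 to 102.4 and 115.6 to 587.5 CPM. For these the late libraries did not overlap the early ones and overlapped the asymptomatic ones. The sum of 8 dendritic cell markers was 276.2 to 436.0 CPM in asymptomatic, 155.2 to 334.8 CPM in early and 327.6 to 618.0 CPM in late libraries. Outside 3057E, late libraries held 313.7 to 587.5 CPM of neutrophil and 466.5 to 618.0 CPM of dendritic cell markers. Both ranges lay above all asymptomatic and early libraries, while the late NK cell range still overlapped the asymptomatic one. Over the 12 surrounding libraries, log2 levels of Cd274 and Tgfb1 had Pearson correlations of 0.84 and 0.81 with the monocyte and macrophage sum, and of 0.35 and 0.55 with the microglia sum. Tgfb1 and Pdcd1 had correlations of 0.83 and 0.79 with the dendritic cell sum, and Pdcd1 of 0.75 with the NK cell sum. The marker Siglech is in both the dendritic cell and the microglia list, so that these sums are not independent. Sirpa, Lag3 and Havcr2 had correlations of 0.93, 0.90 and 0.81 with the microglia sum. These correlations describe 12 libraries that differ in stage and in 3057E, and the part of cell composition in the stage differences was not tested.

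Relative to the microglia markers of the same library, the late libraries did not overlap the asymptomatic ones for Cd274, Pdcd1lg2, Pdcd1 and Havcr2. The share of all genes without overlap on this scale was not computed, so that this only describes these members. Per 1000 CPM of microglia markers, surrounding cells held 0.493 to 1.62 CPM of Cd274 in asymptomatic, 1.55 to 3.98 in early and 5.14 to 10.6 in late libraries. The late libraries lay above all others, also without 3057E, which stood at 9.04, while the asymptomatic and early ranges overlapped. Pdcd1lg2 had at most 0.0163 in asymptomatic, 0.0276 in early and 0.120 to 0.287 in late libraries on this scale. Pdcd1 ran from 0.698 to 2.68 in late libraries, and reached at most 0.654 in asymptomatic and 0.581 in early libraries. Havcr2 had 10.4 to 13.9 in asymptomatic, 9.80 to 24.7 in early and 17.1 to 27.6 in late libraries, and Tgfb1 had medians of 12.7, 12.4 and 23.3 in the 3 stages. Lag3 had medians of 25.4, 19.9 and 21.5 and Sirpa of 76.4, 93.2 and 73.3 CPM per 1000 CPM in asymptomatic, early and late libraries, with overlapping ranges. The divisor of 3057E was low, at 1550 CPM of microglia markers, against 8256 CPM or more in the other late surrounding libraries. On this scale 3057E held 125.2 of Cd47, where no other surrounding library passed 36.1, and 47.7 of Tgfb1 and 130.1 of Sirpa, the top values of both. The scale was chosen after the values were seen and was not tested. The monocyte and macrophage sum was not used as a divisor. Cd274 followed that sum more closely, with a correlation of 0.84, against 0.35 with the microglia sum. The late separation of Cd274 given here therefore describes the microglia divisor alone.

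**Figure D4:**
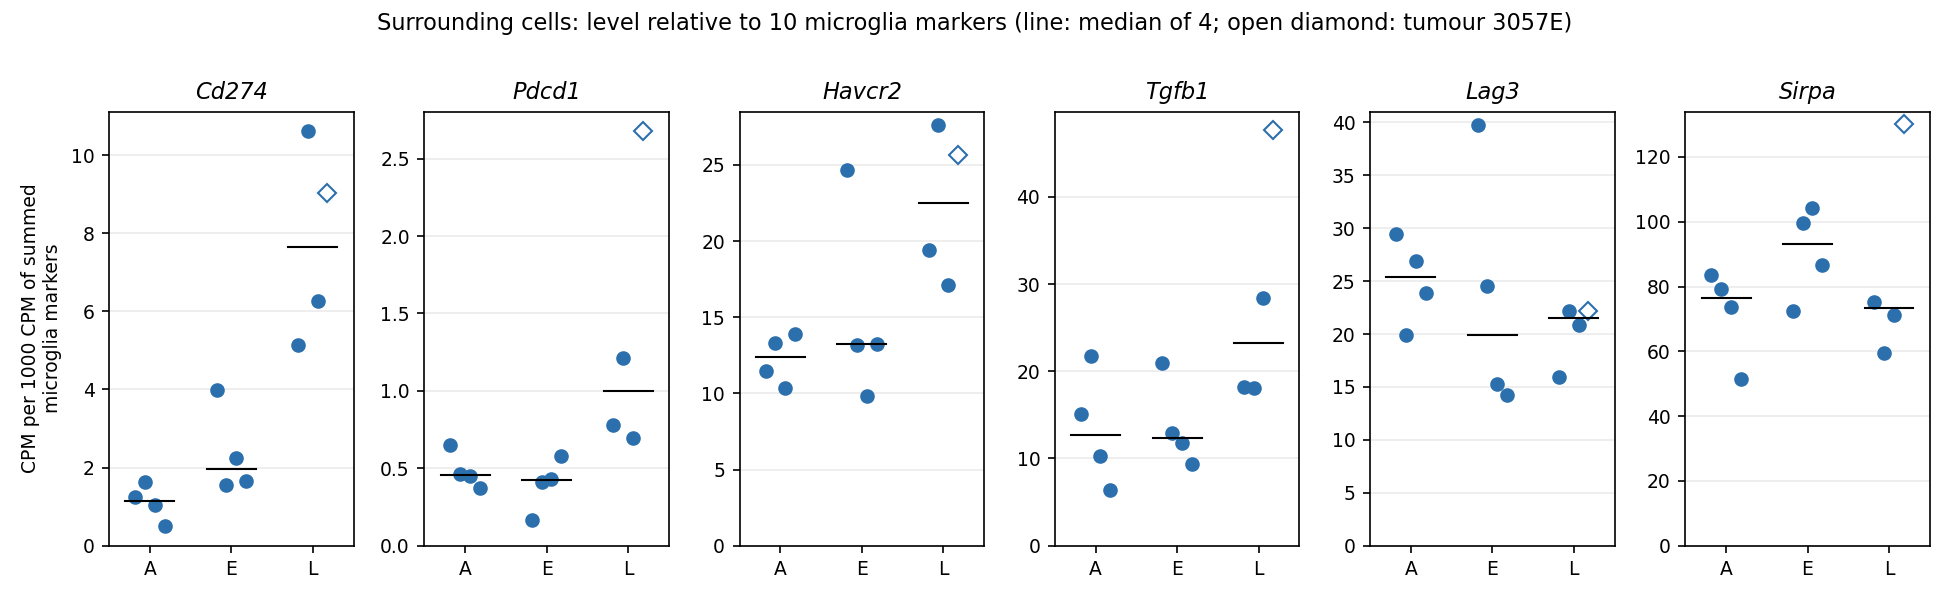
Level of 6 genes in surrounding cells per 1000 CPM of 10 summed microglia markers, by stage, with 4 libraries a stage, the median as a bar and tumour 3057E as an open diamond. Cd274 reached 5.14 to 10.6 in late libraries, and at most 3.98 in the others, while Lag3 ranges overlapped. No other marker sum was used as a divisor.

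In glioma cells, the stage values of Lag3, Havcr2 and Sirpa turned on 3057E. Lag3 had 3.6, 2.52, 3.58 and 8.02 CPM in asymptomatic, 2.04, 1.29, 1.89 and 0.920 CPM in early, and 0, 0.357, 0.681 and 59.98 CPM in late glioma libraries. Havcr2 had 5.33, 4.53, 2.15 and 9.98 CPM in asymptomatic, 1.42, 0.794, 2.13 and 1.58 CPM in early, and 0.507, 0.715, 0.909 and 14.1 CPM in late glioma libraries. For both genes the early libraries lay below all asymptomatic ones, and 3 late libraries lay lower than all asymptomatic ones while 3057E lay above them. Sirpa had 109.5, 90.1, 99.2 and 113.9 CPM in asymptomatic, 61.0, 91.9, 107.9 and 101.6 CPM in early, and 68.6, 53.6, 50.4 and 236.6 CPM in late glioma libraries. Its late values were below the asymptomatic range in 3 tumours and above it in 3057E. Cd47 had 130.7 to 172.1 CPM in asymptomatic, 129 to 227.7 CPM in early and 159.5 to 228.5 CPM in late glioma libraries, and the 3 ranges overlapped.

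With all tumours, the log2 fold changes of Lag3, Tgfb1 and Cd274 in glioma cells late against early were 3.35 ± 1.54, 2.39 ± 0.98 and 1.63 ± 0.69 (SE, n = 4 each), with edgeR adjusted p of 0.25, 0.22 and 0.22. Without 3057E the sign of Lag3 turned to -2.12 ± 0.73 (edgeR adjusted p = 0.062), and Tgfb1 stood at -0.057 ± 0.54. Late against asymptomatic, 3 of 6 genes tested were then called, all lower, beside 14.6% of all genes: Havcr2 fell by 2.95, Lag3 fell by 3.64 and Sirpa fell by 0.85 on the log2 scale (edgeR adjusted p = 0.0044, 0.0063 and 0.015). Late against early, Sirpa alone was called and fell by 0.68 (edgeR adjusted p = 0.038), beside 17.2% of all genes. In the same 3 late glioma libraries, microglia markers summed to 111 to 130 CPM, against 216 to 566 CPM in asymptomatic and 138 to 203 CPM in early glioma libraries. Their part in these differences was not tested.

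**Figure D5:**
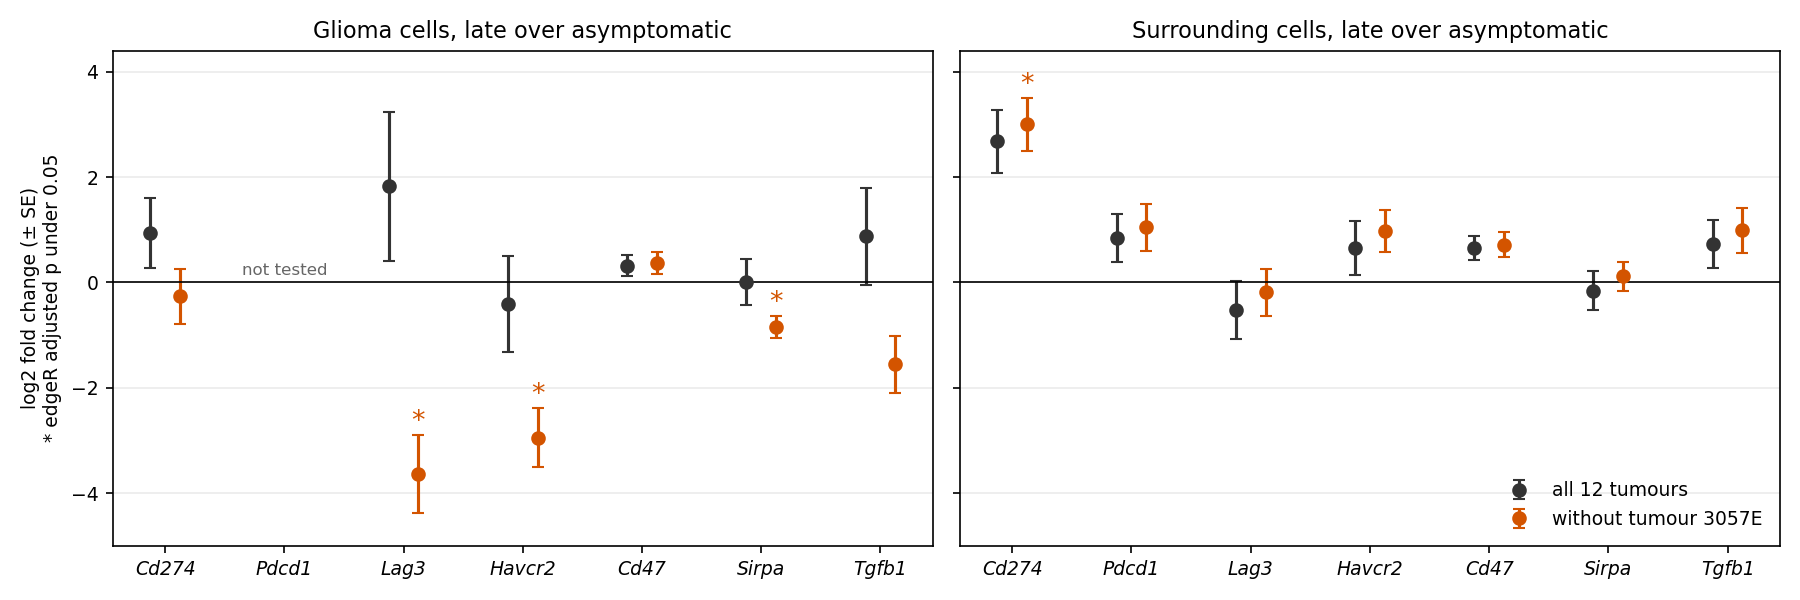
Log2 fold change of late over asymptomatic tumours (edgeR estimates ± SE) in glioma cells (left) and surrounding cells (right), with all 12 tumours and without 3057E; asterisks mark an adjusted p under 0.05, and Pdcd1 was not tested in glioma cells. In glioma cells the estimate of Lag3 was 1.82 with 3057E and -3.64 without it, and in surrounding cells Cd274 was positive in both.

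Whether a stage difference itself differed between glioma and surrounding cells was tested as an interaction. With all tumours, edgeR called none of the 7 genes in any of the 3 interactions, beside 0% of all genes, with 1166, 1584 and 290 of 18812 genes at an unadjusted p under 0.05 late against early, late against asymptomatic and early against asymptomatic. DESeq2 called 0 of the genes and limma voom 2 of the 7 it tested in the interaction late against asymptomatic, beside 0.0903% and 6.83% of all genes. Without 3057E, 4 of 8 genes were called late against asymptomatic, beside 7.48% of all genes. The log2 difference, glioma minus surrounding, was -3.31 ± 0.71 for Cd274, -3.96 ± 0.70 for Havcr2, -3.47 ± 0.84 for Lag3 and -2.58 ± 0.68 for Tgfb1 (edgeR adjusted p = 0.0071, 0.0020, 0.015 and 0.024). For Cd274 the surrounding cells were higher at the late stage in that fit and glioma cells had an estimate of -0.26 ± 0.52, while for Havcr2 and Lag3 the glioma cells were lower. Pdcd1lg2, Pdcd1, Cd47 and Sirpa did not pass.

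The other 65 genes listed for these pathways were compared in the same way. Of 59 tested between glioma and surrounding cells, 44 were lower and 5 higher in glioma cells, with a median log2 fold change of -3.06, beside 46.3% of all genes called, 24.2% called lower and a median of 0.062 over all genes. Of 13 ligands, 10 were lower, among them Cd86 at -5.43 and Cd80 at -3.94, which bind CD28 and CTLA-4, and Lgals9, a ligand of TIM-3, at -3.95. Cd276, the B7-H3 ligand, was higher at 0.69 ± 0.20 (edgeR adjusted p = 0.0076), and the poliovirus receptor Pvr, which TIGIT binds, did not pass the test at 0.05. Of 9 receptors 8 were lower, with Btla at -6.92 and Pirb at -5.05, and all 3 Sirpb1 genes were lower. In glioma cells alone, 43 of the 65 genes passed the count filter, with 1 receptor and 0 Sirpb1 genes among them. Genes that passed only through surrounding cells had to be lower, so that their falls are no support. Of 9 genes for PD-1 signalling and PD-L1 control 7 were lower, among them Ptpn6, the SHP-1 phosphatase, at -5.07, and Cmtm6, which stabilises PD-L1 at the surface, at -1.47. Of 8 suppressive enzymes, cytokines and regulatory T cell genes 6 were lower, among them Arg1 at -5.56, and Nt5e, the CD73 enzyme that makes adenosine, was higher at 1.2 ± 0.26 (edgeR adjusted p = 0.00061).

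Of 17 TGF-beta genes 10 were lower and 3 higher in glioma cells, beside the same 46.3% of all genes called and 24.2% called lower. The receptors Tgfbr2 and Tgfbr1 stood at -4.99 and -3.06, and Nrros, which holds latent TGF-beta on microglia, at -4.93. The integrin genes Itgb8 and Itgav, whose protein pair releases TGF-beta from its latent form, were higher at 1.13 ± 0.29 and 0.80 ± 0.22 (edgeR adjusted p = 0.0033 and 0.0048), and Smad4, the shared signal carrier, was higher at 0.36 ± 0.11 (edgeR adjusted p = 0.0095). Tgfb2 and Tgfb3, the ligand's close relatives, did not pass the test, at 0.36 and -0.45. Between stages in glioma cells, none of 43 tested was called. In surrounding cells late against early, 10 of 58 were higher and none lower, beside 1.41% of all genes called higher. A gene that passed the count filter only through its late libraries had to rise. That was not checked for these genes, so that the count of 10 is no support. The genes that rose included Pirb at 2.97, Siglecg at 2.96, Btla at 3.35, Cd200r1 at 1.79, Sirpb1a at 4.73, Sirpb1b at 4.67, Sirpb1c at 4.54 and Il2ra at 4.57. Late against asymptomatic and early against asymptomatic, 0 of the 58 were called by edgeR, beside 0% of all genes in each. The Sirpb1 genes are near copies of each other, and their counts were split by estimate.

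The 3 genes whose log2 levels followed each member most closely over the 12 surrounding libraries were taken from 13710 genes searched, as a description of 12 libraries. Havcr2 was nearest to Edem2, Cd86 and Ctss, with Pearson r of 0.984, 0.972 and 0.970. Tgfb1 was nearest to Tpm3, Tpm3-rs7 and Spi1, with r of 0.980, 0.976 and 0.972. Cd274 was nearest to Usp25, Mdm2 and Ankle2, with r of 0.970, 0.967 and 0.967. Sirpa was nearest to Hpgds, Nuak1 and P2ry13, with r of 0.970, 0.967 and 0.956. The closest genes to Cd47, Lag3 and Pdcd1 were Ugcg, Mymk and Dennd1c, with r of 0.934, 0.932 and 0.928. Among the members, Cd274 had r of 0.81 with both Tgfb1 and Cd47, and 0.29 with Lag3.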

How the data were processed

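Expected counts per gene were deposited by the authors, and per the submitters' processing notes came from RSEM 1.3.1 with STAR 2.7.5c (build GRCm38). The annotation release, the strand setting and the use of molecular identifiers are not given in the sources used here, so overlapping and antisense genes are uncertain. Per the labels' protocols, a total RNA kit was applied to polyA RNA.

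Rounding of the expected counts changed a library's total by at most 87.5. No pair of libraries of a group agreed within counting error, with a lowest chi-square per degree of freedom of 22.2. The early and late stages were taken from the final letters of the sample labels. The model was edgeR 4.0.16 under R 4.3.3 (TMM, a count minimum of 10, robust quasi-likelihood), with group terms alone, on 24 libraries between populations and on the 12 of a population between stages. DESeq2 1.42.0 and limma 3.58.1 were alternatives. The tests were also run on simulated counts. No outcome of that run is given here, so that it is no support for any call. Likeness and correlations used log2(CPM + 1). Coordinates and lengths came from GENCODE M21, and promoters from RefSeq.

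The 10 genes, the pathway lists and the marker lists were chosen with earlier results of these data known. By the naming rule all 10 genes are analysed in every comparison. Genes with too few counts to test are given by their counts, and a paragraph names those with a value there. Per the labels, both populations of a tumour code come from 1 animal, and deviations from group means correlated at 0.025 to 0.483 between them. Intervals on counts cover counting error only.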

Additional observations from a re-analysis of the deposited data

Results flagged for a closer look

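Of 57 groups of 4 libraries tested per gene, 14 held a library whose gap to its nearest neighbour passed Dixon's 95% critical value. Chance flags about 1 in 20 groups. Where 3 libraries are at 0, any count in the other one is flagged, so that this rate does not hold there. Of the 14, 7 came from 3057E in late glioma cells. Its levels there were 28.1 CPM for Tgfb1, 6.86 CPM for Cd274, 14.1 CPM for Havcr2, 2.07 CPM for Pdcd1, 59.98 CPM for Lag3, 236.6 CPM for Sirpa and 0.0826 CPM for Tigit, each above the other 3 late glioma libraries. In the same library the microglia markers summed to 1618 CPM, against 111 to 130 CPM in those 3. Of these 7 flags, that of Tigit stood beside 3 libraries at 0.

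Lag3 stood at 286.4 CPM in early surrounding cells of 3108C, against 87.7 to 95.7 CPM in the other 3. Tigit stood at 3.11 CPM in early glioma cells of 3108C, against at most 0.0788 CPM in the other 3. The remaining 5 rest on few counts beside 3 libraries at 0: Pdcd1lg2 at 0.0844 CPM in late glioma cells of 3054A, Ctla4 at 0.0751 CPM in asymptomatic glioma cells of 3228A, Pdcd1 at 0.146 CPM and Tigit at 0.437 CPM in asymptomatic glioma cells of 3229B, and the second identifier of Ctla4 at 0.344 CPM in late surrounding cells of 3054C.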

How the results depend on the processing

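The 6 genes lower in glioma cells stayed within 1.5 times that count under all 22 other settings, the replicate block by tumour included, under which Cd274, Lag3 and Tgfb1 had log2 fold changes of -3.86, -6.44 and -5.41. Stage calls turned on the setting. Leaving out 1 tumour gave 0 to 3 calls in glioma late against asymptomatic, 0 to 1 late against early, 0 to 2 and 0 to 4 in surrounding cells, and 0 to 4 in the interaction late against asymptomatic, the highest each time without 3057E. Late against early in surrounding cells, Pdcd1lg2 was the 1 gene called without 3228D, and again without 3229B; it entered those fits, and that without 3057E, through its late libraries and had to differ. limma voom with sample weights gave 3 in glioma late against asymptomatic, 4 and 5 in surrounding cells and 2 in the interaction; DESeq2 gave 2 and 3, and 1 fit of all 24 libraries gave 1 in surrounding cells late against asymptomatic. The cause was not tested.

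Some log2 values changed sign when 1 tumour was left out, over these ranges: Cd47 between asymptomatic populations -0.070 to 0.10; in glioma late against asymptomatic Havcr2 -2.95 to 0.039, Lag3 -3.64 to 2.26 and Sirpa -0.85 to 0.23; late against early Lag3 -2.12 to 3.76, Sirpa -0.68 to 0.42 and Tgfb1 -0.057 to 2.93; in the interactions late against asymptomatic Lag3 -3.47 to 2.95 and Tgfb1 -2.58 to 0.84, and late against early Lag3 -2.65 to 3.80. With voom these were -0.00476 for Cd47, -3.44 and -0.77 for Lag3 and Sirpa late against asymptomatic, -2.10 and -0.66 late against early, and in the interactions -3.20 and -1.86 for Lag3 and Tgfb1, and -2.89 and -0.56 for Lag3 and Pdcd1. Sirpa late against asymptomatic was -0.0160 with the stricter filter, -0.00441 without 3108D and 3109D and -0.0131 in 1 fit. With the replicate block the interactions were -1.50 and -1.38 for Lag3 and Tgfb1, and -0.85 for Lag3 late against early; with surrounding 3108D and 3109D exchanged, -1.47, -1.37 and -0.82. Of 1803 member values, 87 changed sign, 80 of them called in neither setting.

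Lag3 lost its late call between populations with no count filter and without 3054A, 3054B or 3054C, and its early call without 3108D and 3109D. Pdcd1lg2, Ctla4 and Tigit are limited by depth, since 3 counts correspond to 0.194 to 0.331 CPM.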
